A study of Mus musculus with 7 samples.

Results

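The urea cycle and ammonia handling genes described here are 9 rows of the liver expression tables: Cps1, Otc, Ass1, Asl, Arg1, Nags, Slc25a15, Gls2 and Glud1. They were chosen by gene symbol, and all 9 were found among the 23366 genes of the tables and were among the 11251 genes tested. The livers came from C57BL/6 mice, a common inbred strain, aged 3 months (n = 4 samples) or 21 months (n = 3 samples), and the labels name no mutation, transgene or treatment in either group. The sex, diet and hour of sampling of the mice were not in the labels. The comparison asks which transcripts differ between young adult and old liver, and it was read here for the genes that turn ammonia into urea.

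Liver is the organ that makes urea. Inside the mitochondrion, glutaminase (Gls2) and glutamate dehydrogenase (Glud1) release ammonia from glutamine and glutamate, and carbamoyl phosphate synthetase (Cps1) fixes it, provided that its activator N-acetylglutamate is present, which Nags makes. Otc joins carbamoyl phosphate to ornithine, which the carrier Slc25a15 brings in from the cytosol in exchange for citrulline, and in the cytosol Ass1, Asl and Arg1 turn citrulline into arginine and then into urea and ornithine. Hepatocytes around the portal vein carry most of this pathway, while those around the central vein scavenge leftover ammonia with glutamine synthetase (Glul).

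Total expected counts per library ran from 4724687 to 11143125. The precursor of ribosomal RNA, Rn45s, took 18.7% to 25.6% of them. All 8 hepatocyte markers were expressed, with a summed level of 62707 to 86553 TPM at 3 months and 84946 to 98307 TPM at 21 months (TPM is transcripts per 1e+06, a level scaled for gene length). Of these 8, 1 was called higher (Alb, edgeR adjusted p = 0.0275) and 1 lower (Apoa1, edgeR adjusted p = 0.0176). Alb alone had mean levels of 34960 TPM at 3 months and 53930 TPM at 21 months. Markers of kidney, another organ of arginine metabolism, summed to 0 to 0.81 TPM, with Umod at 0 counts in all 7 libraries. Summed markers of stellate cells stood at 78.9 to 117 TPM at 3 months and 134 to 173 TPM at 21 months. Dcn alone made up 54.1 to 79.1 TPM and 109 to 126 TPM of these sums. Dcn was called higher (edgeR adjusted p = 0.00105), while Col1a1 and Col3a1 had log2 fold changes of -0.57 and -0.53 and were not called. Bile duct markers summed to 34.4 to 42.6 and 33.6 to 35.2 TPM, with Sox9 called lower (edgeR adjusted p = 0.0102) among 4 tested. Endothelial markers summed to 68.4 to 122 and 57.3 to 132 TPM, with Lyve1 called lower (edgeR adjusted p = 0.0359) among 5 tested. Macrophage markers summed to 102 to 190 and 65.8 to 206 TPM with 0 of 6 called, and small intestine markers to 38.3 to 75.4 and 50.3 to 116 TPM with 0 of 1 called. Nearly all of the intestinal sum was Fabp2, at 38.2 to 74.6 and 50.1 to 116 TPM. Lct had 0 counts in all libraries, and Muc2 and Vil1 reached at most 0.06 and 0.8 TPM. Markers of B and plasma cells summed to 3.63 to 5.35 and 8.96 to 46.6 TPM, and those of T and NK cells to 2.48 to 3.40 and 3.82 to 7.95 TPM. The 46.6 TPM was old replicate 2, against 8.96 and 11.7 in old replicates 1 and 3. Igj was called higher (6 and 250 counts per age, edgeR adjusted p = 0.0426) among 2 tested. Cd4, the only T and NK marker tested, had a log2 fold change of -0.89 and was not called. Apoa1, Dcn, Col1a1, Col3a1, Sox9, Lyve1, Fabp2, Lct, Muc2, Vil1, Igj and Cd4 were named after their values were seen. The part of these cell types in the results below was not tested. In whole liver, fewer cells of a type and less RNA per cell cannot be told apart.

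None of the 9 genes passed the test between ages, so the data did not show a change in any step of the pathway at the threshold used. The threshold was a Benjamini-Hochberg adjusted p of 0.05 by edgeR's quasi-likelihood test, and 0 of 9 genes passed it against 11.3% of all genes tested (5.47% higher and 5.86% lower at 21 months). At an unadjusted p under 0.05 there were 3 of 9, Cps1 and Ass1 lower and Nags higher at 21 months, against 26.6% of all genes. In scaled counts, ages did not overlap for 2 of 9, Cps1 and Nags, where 24.2% of all genes tested showed no overlap. All 9 genes averaged at least 100 counts per 1e+06 scaled counts. Of the 1083 tested genes at that level, 18.2% were called, 401 had an unadjusted p under 0.05 and 362 showed no overlap. Fitted log2 fold changes (21 months minus 3 months) ran from -0.30 to 0.20 with a median of -0.02, beside a median of -0.001 over all genes tested. DESeq2 called Cps1 lower and limma on TPM called Nags higher, with values given at those genes below. The labels do not say that samples came from separate animals, so each p reflects only how far these libraries differ from each other, part of which may be technical.

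The levels spanned a wide range across the genes and a narrow one between ages. Averaged over the 7 libraries, Ass1 had the highest level at 3105 TPM (SD 349), followed by Cps1 at 1351 (SD 148), Arg1 at 1166 (SD 138), Asl at 634.7 (SD 71.7) and Glud1 at 598.3 (SD 60.8) TPM. Lower levels were those of Gls2 at 290.9 (SD 38.4), Otc at 215.2 (SD 24.4), Slc25a15 at 145.3 (SD 12.7) and Nags at 107.7 (SD 13.7) TPM. Ass1 was thus 28.8 times Nags, and the 9 genes together made up 0.717% to 0.879% of all TPM. Neighbours in this order kept it in all 7 libraries except Cps1 over Arg1 (6 of 7) and Asl over Glud1 (4 of 7).

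**Figure D1:**
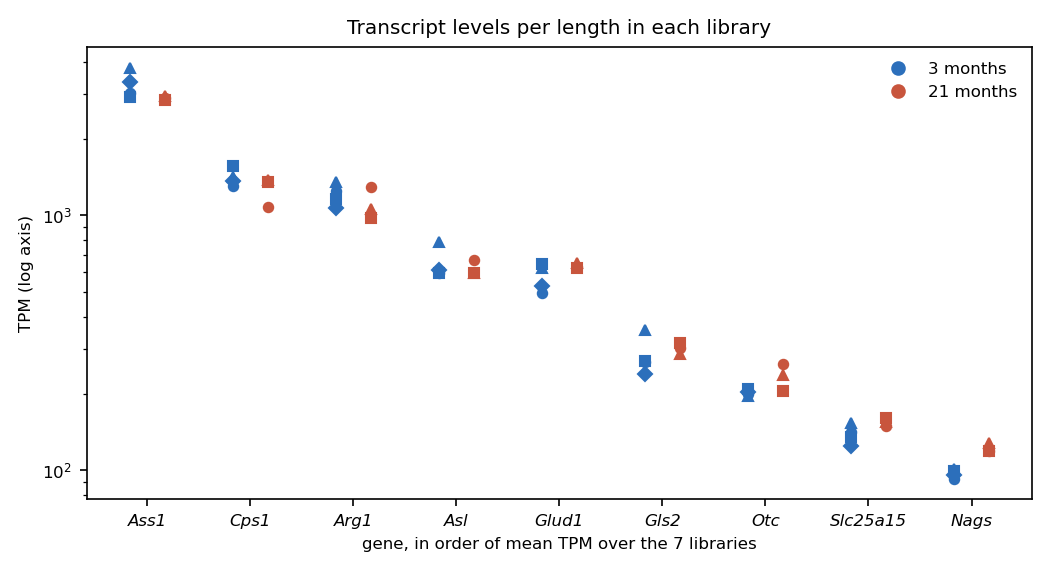
TPM of each gene in every library on a log axis, genes in order of their mean, 3 months in blue and 21 months in red, with circles, squares, triangles and diamonds for replicates 1, 2, 3 and 4. Levels span from 3105 TPM for Ass1 to 107.7 TPM for Nags, and within each gene the ages lie close together.

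Promoter sequences were at hand for 5 of the 9 genes (RefSeq, GRCm38.p6, 250 bases before to 50 bases after the annotated start). Those of Ass1, Nags and Otc are shown because these genes span the range of levels, from the most to the least abundant transcript, and include a mitochondrial and a cytosolic enzyme of the cycle. They are written 5′ to 3′ on the gene's strand, with capitals marking matches on either strand to any of 9 motifs: the cAMP response core TGACG, the box known as CCAAT, the TATA box written TATAAA, the C/EBP motif TTGCNNAA, the E-box spelled CACGTG, the GC box spelled GGGCGG, the glucocorticoid receptor motif TGTTCT, the HNF4 motif CAAAGTC and the nuclear receptor motif AGGTCA. They lie at chr2:31470020-31470319 (Ass1, plus strand), chr11:102145263-102145562 (Nags, plus strand) and chrX:10252055-10252354 (Otc, plus strand).
Ass1: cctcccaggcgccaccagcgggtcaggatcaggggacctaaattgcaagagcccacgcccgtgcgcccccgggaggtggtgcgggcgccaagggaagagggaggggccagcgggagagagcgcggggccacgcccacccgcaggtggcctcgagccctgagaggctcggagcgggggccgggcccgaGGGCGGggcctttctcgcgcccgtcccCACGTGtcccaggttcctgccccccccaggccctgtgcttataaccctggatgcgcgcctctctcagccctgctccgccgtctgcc
Nags: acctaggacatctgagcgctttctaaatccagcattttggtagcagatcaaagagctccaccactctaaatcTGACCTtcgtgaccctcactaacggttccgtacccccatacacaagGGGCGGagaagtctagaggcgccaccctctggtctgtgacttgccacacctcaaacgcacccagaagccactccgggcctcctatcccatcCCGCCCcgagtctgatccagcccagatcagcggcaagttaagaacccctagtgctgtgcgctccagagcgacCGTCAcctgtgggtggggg
Otc: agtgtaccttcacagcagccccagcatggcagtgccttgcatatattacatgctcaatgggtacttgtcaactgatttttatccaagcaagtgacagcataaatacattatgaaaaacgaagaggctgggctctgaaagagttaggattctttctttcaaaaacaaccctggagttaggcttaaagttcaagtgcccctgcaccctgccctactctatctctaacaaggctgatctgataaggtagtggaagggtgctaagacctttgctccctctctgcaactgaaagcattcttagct
The Ass1 window was 74.0% G and C, with a GC box ending 58 bases before the start and an E-box ending 31 bases before it. The Nags window, at 57.7% G and C, held GC boxes ending 127 and 36 bases before the start, a nuclear receptor motif ending 173 bases before it, and a cAMP response core after it. The Otc window was 44.3% G and C and held none of the 9 motifs, which says only that these letters are not in this window. Of all 32851 RefSeq promoter windows of this length, 35.7% held the GC box, 7.15% the E-box, 20.8% the cAMP response core and 16.3% the nuclear receptor motif. Shares for the motifs not matched here were 37.4% for the CCAAT box, 13.6% for the TATA box, 10.8% for the C/EBP motif, 19.0% for the glucocorticoid motif and 4.44% for the HNF4 motif.

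Among the genes of nitrogen entry into the mitochondrion, Cps1 lay lower and Nags higher in old liver without passing the test, and Gls2 and Glud1 had log2 fold changes within 0.03 of 0. Cps1 stood at 3350, 3570, 3267 and 3622 CPM (counts per 1e+06 scaled counts) in 3-month replicates 1 to 4 and at 2546, 2925 and 3011 CPM in 21-month replicates 1 to 3. In CPM, every old library lay below every young library. In TPM the ages overlapped, since old replicates 2 and 3 (1350 and 1376 TPM) exceeded young replicate 1 (1304 TPM). With limma on log2(TPM + 1) the log2 fold change was -0.16, or -0.27 relative to the median of all genes (limma adjusted p = 0.410). The means in CPM were 3452 ± 171 (SD, n = 4) and 2828 ± 247 (SD, n = 3), a level 0.819 times that of young liver. The log2 fold change was -0.29 ± 0.11 (SE; 95% interval -0.51 to -0.06; edgeR adjusted p = 0.0905). DESeq2 on the same counts called Cps1 (log2 fold change -0.28, DESeq2 adjusted p = 0.0460, in a test that called 10.1% of genes), and the other 18 alternatives did not (adjusted p = 0.0660 to 0.410).

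Nags, at a small fraction of the Cps1 level, went the other way. Its CPM were 106, 101, 103 and 112 at 3 months and 125, 115 and 124 at 21 months. The ages did not overlap here either, though the lowest old library (115) was close to the highest young library (112). The log2 fold change was 0.20 ± 0.09 (SE; 95% interval 0.01 to 0.39; edgeR adjusted p = 0.159). Scaling by TPM moved the median log2 fold change of all genes to 0.10, and limma then called Nags higher (log2 fold change 0.32, or 0.22 relative to that median; limma adjusted p = 0.0459, in a test that called 9.63% of genes).

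Gls2, the liver form of glutaminase, stood at 356, 317, 425 and 328 CPM at 3 months and 371, 356 and 325 CPM at 21 months. The old libraries lay within the range of the young. The log2 fold change was -0.02 ± 0.11 (SE; 95% interval -0.26 to 0.22; edgeR adjusted p = 0.933), and its sign changed under 6 alternatives.

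Glud1, which links glutamate to ammonia and 2-oxoglutarate, had a level per length close to that of Asl. It stood at 849, 978, 956 and 938 CPM at 3 months and at 992, 896 and 956 CPM at 21 months, with overlapping ages. The log2 fold change was 0.03 ± 0.10 (SE; 95% interval -0.18 to 0.23; edgeR adjusted p = 0.897). A difference of more than 17.6% upward or 11.6% downward lay outside that interval.

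The mitochondrial steps that bring in ornithine and make citrulline showed no separation of the ages. Slc25a15, the ornithine and citrulline carrier, stood at 266, 225, 258 and 240 CPM at 3 months and at 258, 255 and 247 CPM at 21 months, and the old libraries fell inside the young range. Its log2 fold change was 0.04 ± 0.09 (SE; 95% interval -0.16 to 0.23; edgeR adjusted p = 0.854). Otc, ornithine transcarbamylase, stood at 243, 226, 213 and 254 CPM at 3 months and at 295, 212 and 247 CPM at 21 months. The old libraries held both the highest and the lowest value of all. Its log2 fold change was 0.10 ± 0.11 (SE; 95% interval -0.14 to 0.34; edgeR adjusted p = 0.632), and -0.03 without 21-month replicate 1.

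All 3 cytosolic enzymes lay lower in old liver on average, and none passed the test. Ass1, argininosuccinate synthetase, stood at 2628, 2260, 2972 and 3013 CPM at 3 months and at 2327, 2090 and 2204 CPM at 21 months. The ages overlapped through a single young library, replicate 2. The means of 2718 ± 351 (SD, n = 4) and 2207 ± 118 CPM (SD, n = 3) gave a log2 fold change of -0.30 ± 0.12 (SE; 95% interval -0.55 to -0.05; edgeR adjusted p = 0.112), and without that library it was -0.38 (edgeR adjusted p = 0.0672).

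Asl, argininosuccinate lyase, stood at 484, 431, 574 and 515 CPM at 3 months and at 505, 412 and 416 CPM at 21 months. Old replicate 1 sat among the young libraries and the other old libraries just under them. The log2 fold change was -0.17 ± 0.12 (SE; 95% interval -0.42 to 0.07; edgeR adjusted p = 0.374).

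Arg1, the liver arginase that releases urea, showed the same split. It stood at 979, 807, 957 and 871 CPM at 3 months and at 944, 652 and 718 CPM at 21 months, so that old replicate 1 lay in the young range and the other old libraries below it. The log2 fold change was -0.23 ± 0.13 (SE; 95% interval -0.50 to 0.04; edgeR adjusted p = 0.274). Without 21-month replicate 1 it was -0.40 and passed the test (edgeR adjusted p = 0.0237, in a fit that called 14.4% of genes); with each of the other 6 libraries left out it did not (0.243 to 0.680), and without 21-month replicate 2 it was -0.10. In 21-month replicate 1, macrophage markers summed to 65.8 TPM (206 and 164 in replicates 2 and 3) and endothelial markers to 57.3 TPM (132 and 123), and their part in the Arg1 result was not tested. Arg2, the mitochondrial arginase of other tissues, gave 2 counts over the 3-month and 5 over the 21-month libraries, against 24872 and 20287 for Arg1.

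**Figure D2:**
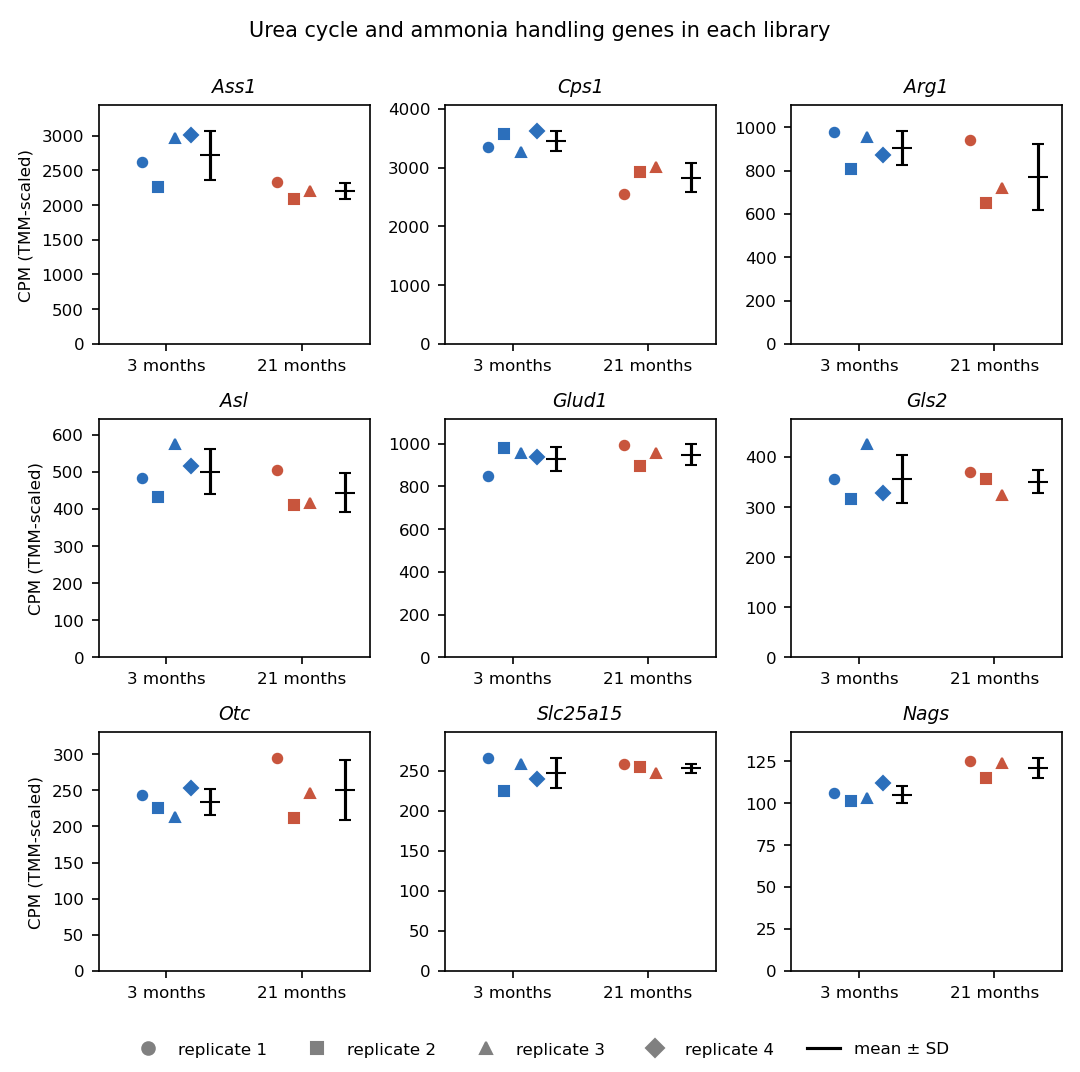
CPM of the 9 genes in each library at 3 months (blue) and 21 months (red), each axis from 0, with marker shape for the replicate number and bars for the mean ± SD of 4 and 3 libraries. Cps1 and Nags are the panels without overlap, and in the Asl and Arg1 panels 21-month replicate 1 (505 and 944 CPM) sits with the young libraries.

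Among the 5 enzymes of the cycle, the shares of Ass1, Cps1, Arg1 and Asl in their summed TPM overlapped between ages, and that of Otc did not. Ass1 made up 45.3% to 50.7% of their summed TPM at 3 months and 46.6% to 47.5% at 21 months, Cps1 18.8% to 24.3% and 17.4% to 22.7%, Arg1 16.2% to 19.6% and 16.4% to 21.0%, and Asl 9.23% to 10.4% and 9.56% to 10.8%. The share of Otc was 2.58% to 3.24% at 3 months and 3.44% to 4.22% at 21 months, without overlap. Cps1 was 6.55 to 7.51 times Otc in young and 4.12 to 6.59 times Otc in old libraries. The summed TPM of the 5 enzymes was 6346, 6449, 7555 and 6597 at 3 months and 6191, 5957 and 6215 at 21 months, again without overlap, and the mean of the old was 0.909 times that of the young. These sums and shares were looked at with the values of single genes known and carry no test.

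Beside these sums, Alb, the gene of serum albumin, stood at 25325 to 44375 TPM at 3 months and 50824 to 57033 TPM at 21 months and was called higher in old liver (edgeR adjusted p = 0.0275). The Alb call ended under 8 of 19 alternatives (adjusted p = 0.0502 to 0.142): leaving out young replicate 1, 3 or 4 or old replicate 3, limma on TPM with either pseudocount (0.0634 and 0.0632), no robust estimation and the covariate for effective length. As TPM is a share of the whole, its part in the sums was not tested. Cps1 TPM was 0.0353 to 0.0540 of Alb TPM at 3 months and 0.0212 to 0.0250 at 21 months.

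Genes around the cycle were read from 6 lists of 84 genes in all, of which 74 were tested. Of these 74 partner genes, 7 were called higher and 3 lower at 21 months, 13.5% against 11.3% of all genes tested, with a median log2 fold change of 0.04 beside -0.001 over all genes. Their number fell to 5 without 3-month replicate 1, 2 or 4 or without 21-month replicate 3. It was 2, Cebpb and Asns, with the shortfall of effective length as a covariate. This shortfall is the median of gene length minus effective length over genes with counts. It ran from 34.4 to 38.8 bases at 3 months and from 21.4 to 35.4 bases at 21 months, and what sets it was not tested.

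Of 11 tested partners of the urea cycle itself, 0 were called, against 11.3% of all genes. At an unadjusted p under 0.05 there were 2, against 26.6% of all genes, and the median log2 fold change was 0.04. Slc25a13 (citrin), which exports the aspartate that Ass1 uses, stood at 133 ± 15.6 CPM (SD, n = 4) and 128 ± 18.8 CPM (SD, n = 3). Car5a, the mitochondrial carbonic anhydrase that supplies bicarbonate to Cps1, stood at 76.0 ± 6.89 (SD, n = 4) and 78.5 ± 11.6 CPM (SD, n = 3). Sirt5, a sirtuin that acts on the Cps1 protein, stood at 7.57 ± 1.06 (SD, n = 4) and 6.93 ± 1.05 CPM (SD, n = 3). Their edgeR adjusted p ran from 0.749 to 0.832. The 3 partners too low to test were Arg2, the urea transporter Slc14a1 (3 and 6 counts per age) and the ornithine carrier Slc25a2 (6 and 4 counts per age), the last 2 named after their values were seen.

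Of 12 tested enzymes of glutamine and glutamate outside the 9 genes, 1 was called lower (8.33%, against 11.3% of all genes called). At an unadjusted p under 0.05 there were 6, against 26.6% of all genes, and the median log2 fold change was 0.01. Asns, which makes asparagine and glutamate from aspartate and glutamine, stood at 4.74, 4.29, 1.42 and 3.73 CPM at 3 months and at 0.296, 0.279 and 0.595 CPM at 21 months (edgeR adjusted p = 0.00105). All old libraries lay near the level of 3 counts (0.296 to 0.419 CPM by library), with 10 counts in all, so no fold is given. Glul, the glutamine synthetase of pericentral hepatocytes, stood at 714 ± 62.3 (SD, n = 4) and 725 ± 48.5 CPM (SD, n = 3; edgeR adjusted p = 0.928). The TPM ratio of Gls2, which breaks glutamine down, to Glul, which makes it, was 0.474 to 0.754 at 3 months and 0.473 to 0.617 at 21 months. Oat, ornithine aminotransferase, varied widely within an age, at 560, 337, 491 and 478 CPM and at 624, 285 and 638 CPM (edgeR adjusted p = 0.830).

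Of 13 tested enzymes that release ammonia from amino acids, 0 were called, against 11.3% of all genes. At an unadjusted p under 0.05 there were 2, against 26.6% of all genes. The median log2 fold change was 0.08, with a range of -0.48 to 0.42. The list includes Hal, Sds and Gldc, which break down histidine, serine and glycine, and none of its members is singled out by the naming rule.

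Amino acid transporters held 3 of the called partners, all higher in old liver, of 13 tested (23.1%, against 11.3% of all genes). The median log2 fold change was 0.17, and no list was tested as a set. Slc7a2, a carrier of arginine and other cationic amino acids, stood at 218, 174, 215 and 162 CPM at 3 months and at 243, 356 and 325 CPM at 21 months. It rose 1.60-fold (log2 fold change 0.68 ± 0.14 SE, edgeR adjusted p = 0.00903), with all old above all young libraries. Slc3a1, the partner chain of a carrier of cystine and dibasic amino acids, rose 1.51-fold from 43.0 ± 5.42 (SD, n = 4) to 64.5 ± 9.03 CPM (SD, n = 3; edgeR adjusted p = 0.00811). Slc38a4, a neutral amino acid carrier of liver, rose 1.25-fold from 544 ± 9.96 (SD, n = 4) to 678 ± 4.66 CPM (SD, n = 3; edgeR adjusted p = 0.0306). Leaving out any young library, or old replicate 3, ended the call of Slc38a4 (edgeR adjusted p = 0.0596 to 0.0864), and so did the replicate block (0.0515). With the shortfall of effective length as a covariate the 3 genes had edgeR adjusted p of 0.146, 0.190 and 0.163.

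Of 16 tested regulators, 3 were called higher and 1 lower (25% in all, against 11.3% of all genes). The median log2 fold change was 0.06. Cebpb, a transcription factor of the acute and hormonal response, stood at 34.1, 32.5, 34.8 and 40.6 CPM at 3 months and at 56.4, 64.7 and 53.5 CPM at 21 months. It rose 1.64-fold (log2 fold change 0.71 ± 0.11 SE, edgeR adjusted p = 0.00128), and no alternative ended that call. Its relative Cebpa, a known regulator of the urea cycle genes, stood at 491 ± 28.8 (SD, n = 4) and 505 ± 70.8 CPM (SD, n = 3; edgeR adjusted p = 0.868). Foxa3 fell from 53.4 ± 10.7 (SD, n = 4) to 35.4 ± 3.10 CPM (SD, n = 3; edgeR adjusted p = 0.0190), and leaving out young replicate 1, young replicate 4 or old replicate 3 ended the call (0.0530, 0.0619 and 0.105), as did limma on log2(TPM + 0.1) (limma adjusted p = 0.0501). Ppargc1a and Foxo1, both regulators of the fasting response, were called higher at 1.80-fold and 1.33-fold (edgeR adjusted p = 0.0348 and 0.0459). Both calls ended when any young library, old replicate 2 or old replicate 3 was left out (edgeR adjusted p = 0.0579 to 0.140). DESeq2, limma voom and limma on TPM with either pseudocount called neither (adjusted p = 0.0507 to 0.0691), and the Foxo1 call also ended with library size only (edgeR adjusted p = 0.0545) and without robust estimation (0.0516). Hnf4a, a nuclear receptor of hepatocytes, stood at 842 ± 90.1 (SD, n = 4) and 718 ± 36.1 CPM (SD, n = 3; edgeR adjusted p = 0.181), and the glucagon receptor gene Gcgr at 212 ± 9.12 (SD, n = 4) and 209 ± 8.72 CPM (SD, n = 3; edgeR adjusted p = 0.902).

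Among 9 tested genes that use arginine or make polyamines, 1 was called higher and 1 lower (22.2% in all, against 11.3% of all genes). The median log2 fold change was -0.41. Ddah1, which breaks down dimethylarginine to citrulline, rose 1.57-fold, from 118, 88.0, 106 and 121 CPM at 3 months to 154, 170 and 187 CPM at 21 months (log2 fold change 0.65 ± 0.12 SE, edgeR adjusted p = 0.00282; 0.0853 with the shortfall of effective length as a covariate). Srm, spermidine synthase, fell from 39.9 ± 5.67 (SD, n = 4) to 28.5 ± 2.18 CPM (SD, n = 3; edgeR adjusted p = 0.0229). Leaving out young replicate 1, 2 or 4 or old replicate 2 or 3 ended the Srm call (edgeR adjusted p = 0.0643 to 0.0841), as did limma on log2(TPM + 1) (limma adjusted p = 0.0796).

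**Figure D3:**
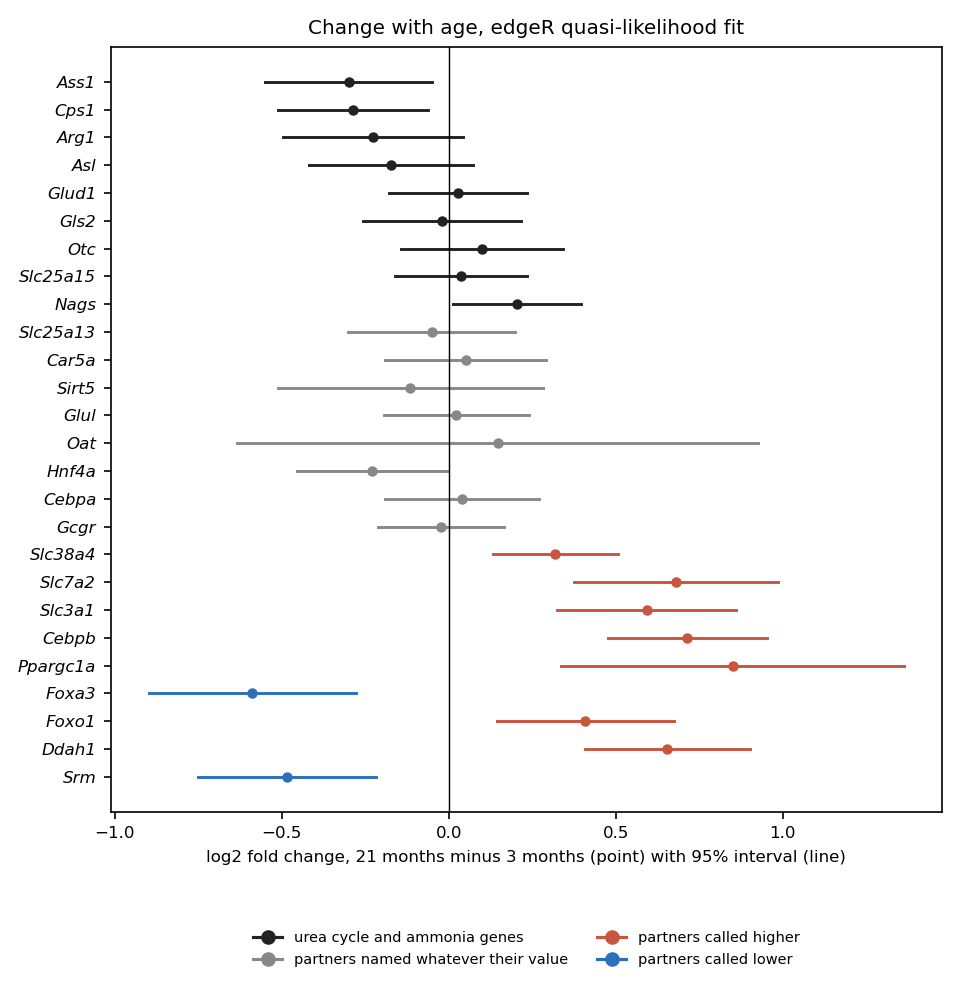
Log2 fold change (point) and 95% interval (line) from the edgeR fit for the 9 genes (black), 8 partners named whatever their value (grey) and partners called higher (red) or lower (blue) at 21 months; Asns, at the level of a few counts in old liver, is left out. The points of the 9 genes lie between -0.30 and 0.20.

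**Figure D4:**
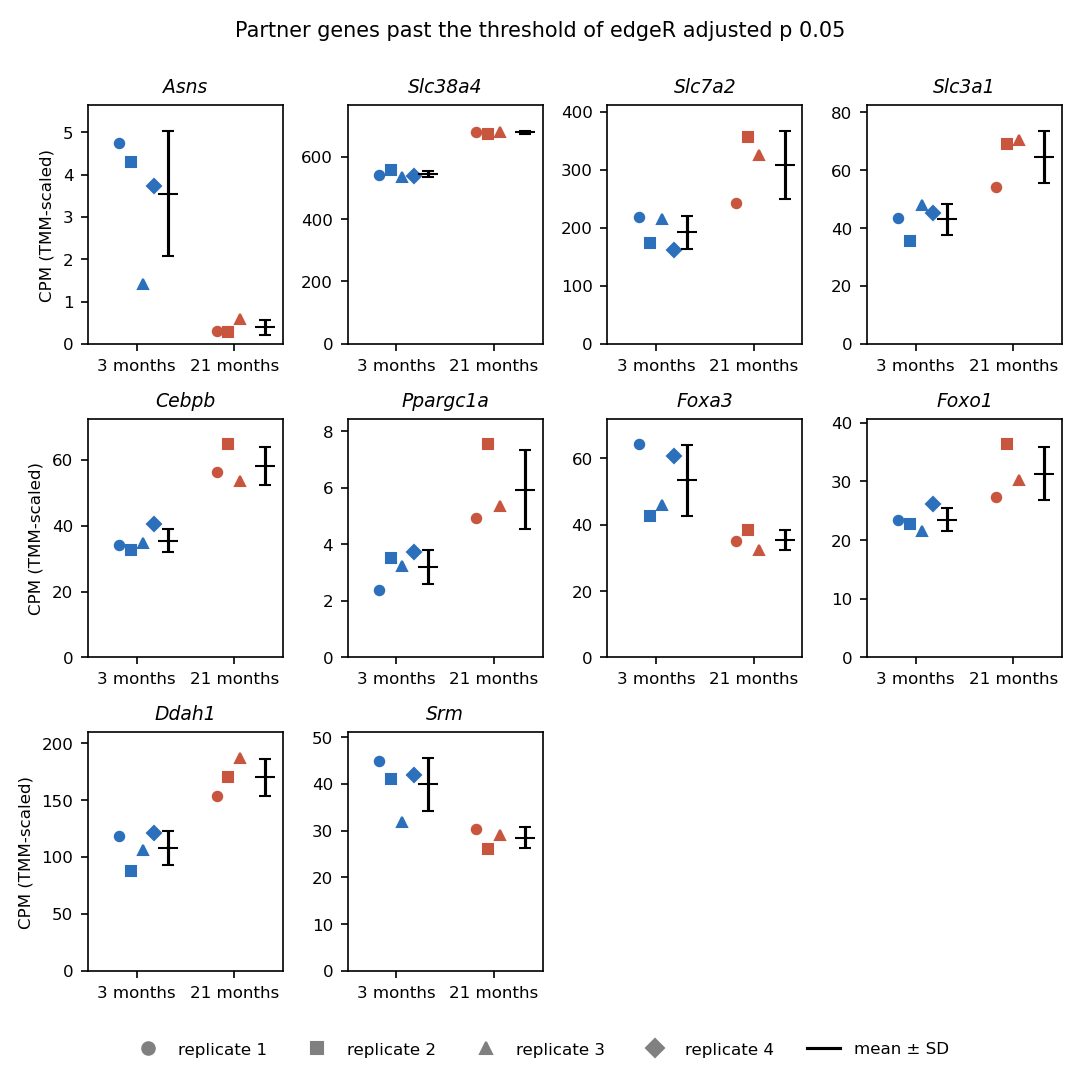
CPM of the 10 called partner genes in each library at 3 months (blue) and 21 months (red), each axis from 0, with marker shape for the replicate number and bars for the mean ± SD of 4 and 3 libraries. In each panel the ages do not overlap, as in Slc7a2, where the young libraries reach 218 and the old start at 243 CPM. The genes were picked by the test between these same ages, which favours such separation. No overlap was seen for 19 of the 74 tested partners and 24.2% of all genes tested.

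Zonal markers were called at shares near the 11.3% of all genes tested, at 12.5% of 8 periportal and 9.09% of 11 pericentral markers. Periportal markers held 0 calls higher and 1 lower, and pericentral markers 1 higher and 0 lower. Their median log2 fold changes were 0.04 and 0.02. The periportal call was Cdh1 (edgeR adjusted p = 0.0202) and the pericentral call Slc22a3 (edgeR adjusted p = 0.0319), both named after their values were seen. The Cdh1 call ended without young replicate 2 or old replicate 3 (edgeR adjusted p = 0.0533 and 0.0794) and with the covariate for effective length (0.118). The Slc22a3 call ended without any one library other than old replicate 2 (edgeR adjusted p = 0.0505 to 0.158), with limma voom (0.0604), with limma on TPM (0.0507 and 0.0589) and with that covariate (0.242). Gls2 is on the periportal list and Glul and Oat on the pericentral list, so the lists share genes with those above.

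The 5 genes whose log2 CPM followed Cps1 most closely over the 7 libraries, among 8752 genes averaging 5 CPM or more, were Ubald1 (Pearson r = 0.998), Dnm2 (0.993), Cep250 (0.984), Hsd3b5 (0.984) and Cep350 (0.978). These points share their library and its scaling, and the genes were picked as the highest of many, so r is a description. Ubald1 stood at 15.4 to 18.0 CPM in young and 10.5 to 13.7 CPM in old libraries. Cep250 and Hsd3b5, the latter a steroid dehydrogenase of male mouse liver, were called lower in old liver (log2 fold change -0.46 and -1.18, edgeR adjusted p = 0.0479 and 0.0412). The Cep250 call ended under 16 of 19 alternatives (adjusted p = 0.0508 to 0.371), among them DESeq2 (0.109) and any 1 of the 7 libraries left out (edgeR adjusted p = 0.0676 to 0.143). The Hsd3b5 call ended under 7 of 19 (edgeR adjusted p = 0.0629 to 0.127): without young replicate 1, 2 or 4 or old replicate 3, with library size only, without the filter and with the covariate for effective length.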

How the data were processed

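Polyadenylated liver RNA was sequenced from strand-specific libraries without molecular identifiers, per the labels' protocols. TopHat, RSEM, edgeR and the build mm9 appear in the submitters' processing notes, without versions or roles. The authors deposited expected counts per gene, TPM (which sum to 1e+06 per library) and FPKM (not used), with gene length and effective length in bases, the other values used, per the file headers. Expected counts of Gls2, Glud1, Nags, Slc25a15, Otc and Arg1 were whole numbers in all 7 libraries (within 0.005), while those of Ass1 were whole in 1, Asl in 5 and Cps1 in 6, so some of their reads were shared with other rows.

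Counts were rounded, filtered (filterByExpr, minimum count 10, minimum total 15), scaled by TMM and tested in edgeR 4.0.16 (robust quasi-likelihood, R 4.3.3) with Benjamini-Hochberg adjustment over 11251 genes at 0.05. The code was tested on simulated data with 200 genes changed 2-fold, of which 181 were called, beside 20 false calls. The share of false calls was thus above 0.05 in that simulation, whose changed genes all averaged 5 CPM or more. Smaller changes, such as those fitted for the 9 genes, were not simulated. SE is the log2 fold change over the root of F, and intervals are at 95%. Alternatives used limma 3.58.1, DESeq2 1.42.0, other scalings, filters, pseudocounts of 1 and 0.1, a replicate block, the shortfall of effective length as a covariate, and each library left out. Deviations of same-numbered samples correlated at 0.107, 0.174 and 0.104 over all genes. By the rule of every pair above 0.1, the numbers of the titles were treated as possible pairs. That was done in the replicate block alone, and the main fit had no block. Of the 9 differently numbered pairs, 3-month replicate 4 with 21-month replicate 1 reached 0.159; nothing in the labels says what they share. A count of 0 allows up to 3 counts, 0.257 to 0.607 CPM by library, covering counting error only.

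Named were all 9 genes, up to 4 called genes of each partner list with the smallest adjusted p, 10 fixed partners (1 is not reported here), and 5 genes most like Cps1. Genes and lists were chosen with earlier results of these data known. Promoters come from RefSeq, GRCm38.p6; coordinates of the tables are not given. Figures used matplotlib 3.10.9.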

Additional observations from a re-analysis of the deposited data

How the results depend on the processing

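Across 19 alternatives, Asl and Ass1 kept their direction and stayed short of the threshold in each. The 9 genes held 1 call in 4 alternatives and 0 in the others: Cps1 with DESeq2 (-0.28), Nags with limma on log2(TPM + 1) and log2(TPM + 0.1) (both 0.32), and Arg1 without 21-month replicate 1 (-0.40). The sign of Gls2 turned with library size only (0.0026), limma on TPM with either pseudocount (both 0.11) and the effective length covariate (0.0443), and without 3-month replicate 3 (0.0712) or 21-month replicate 3 (0.0499). Glud1 turned without 3-month replicate 1 (-0.0141) or 21-month replicate 1 (-0.0072), Slc25a15 without 3-month replicate 2 (-0.0066) and Otc without 21-month replicate 1 (-0.0335). The cause was not tested. With a library left out, log2 fold changes ranged from -0.32 to -0.22 for Cps1, -0.38 to -0.24 for Ass1, -0.28 to -0.10 for Asl, -0.40 to -0.10 for Arg1, 0.18 to 0.26 for Nags, -0.0335 to 0.23 for Otc, -0.0066 to 0.0729 for Slc25a15, -0.0739 to 0.0712 for Gls2 and -0.0141 to 0.0847 for Glud1. Calls among the 9 ranged from 0 to 1, among partners from 5 to 12 and over all genes from 580 to 1642, against 10 partners and 1274 genes with all samples. The effective length covariate left 332 genes and 2 partners. With the replicate block Cps1 was -0.27 (edgeR adjusted p = 0.123) and Ass1 -0.24 (0.171); among the 9 genes, the partner genes and Alb, Cdh1, Slc22a3, Cep250 and Hsd3b5, the block ended the calls of Slc38a4 (0.0515) and Cep250 (0.0856) and added Odc1 (0.0447). Of genes called, 74.1% were higher with limma on log2(TPM + 1), against 48.3% in the edgeR test.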

Other observations

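The libraries of an age did not deviate alike in all 9 genes. Old replicate 1 had the highest CPM of its age for 8 of the 9 genes and the lowest for Cps1. Among young libraries, replicate 2 was the lowest for 6 of 9 genes. Old replicate 1 also had the highest shares of Lars2 and Rn45s counts of its age (2.55% and 22.4%) and the highest shortfall of effective length (35.4 bases against 30.9 and 21.4). Of 6 tested macrophage markers it was the lowest of its age in 6, and of 5 endothelial markers in 4; Csf1r stood at 18.7 against 70.4 and 46.6 CPM and Kdr at 14.0 against 39.0 and 37.2 CPM, genes chosen after their values were seen. Its summed hepatocyte markers were the lowest of its age as well, and lowest in 6 of 8 markers. Their part in this was not tested.

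Over the 7 libraries, the levels of the 3 cytosolic enzymes were correlated: Pearson r of log2 CPM was 0.871 for Ass1 and Asl, 0.841 for Asl and Arg1 and 0.709 for Ass1 and Arg1. After subtraction of the mean of each age, r was 0.853, 0.779 and 0.515. Cps1 did not follow them within ages, at -0.340 with Ass1, -0.754 with Asl and -0.892 with Arg1. The lowest r of the 36 pairs over all libraries was that of Nags and Cps1 (-0.763), which was -0.068 within ages. Correlation within ages was not limited to the cytosolic enzymes. It was 0.803 for Nags and Otc, 0.778 for Gls2 and Asl and 0.724 for Gls2 and Slc25a15, and 24 of the 36 pairs were positive. These points share library and scaling, and 7 libraries give a description only.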
